A study of Mus musculus with 2 samples.

Results

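Tumour-like cells high in transcripts of DNA synthesis were described in 2 single-cell RNA libraries of mouse G422 glioma. A cell barcode was called tumour-like when it held 10000 UMIs (unique molecular identifiers, each standing for 1 captured RNA molecule) or more and at most 15% mitochondrial UMIs. It also had to hold at most 1 UMI of Ptprc, at most 10 of C1qa, C1qb and C1qc together, at most 2 of Cldn5, Flt1 and Pecam1 together, and 20 or more of Vim, the mesenchymal filament vimentin. Each of the 5103 tumour-like cells was scored by the mean of ln(1 + UMIs per 10000) over 8 genes (Tk1, Lig1, Esco2, Brca1, Rrm2, Mcm5, Mcm6 and Ung). Members were the cells selected on that score, the top 10% with both libraries pooled. There were 510 members of 14567 barcodes of 1000 UMIs or more, 394 in the control library and 116 in the LTS library, and 4593 other tumour-like cells, 3320 and 1273. The members were thus chosen by the measured levels of these 8 genes in the same cells, so every difference between members and other cells is given as a description, with no test.

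G422 is a mouse glioma line, which the series title calls triple-negative, grown in the brains of Kunming mice. The control library came from an untreated tumour taken at day 7. The LTS (long-term survivor) library came from mice that had lived for more than 100 days after a combined therapy and then carried the same tumour on the opposite side of the brain; the labels give neither the agents of that therapy nor the inoculation from which its day 7 is counted. In both, tissue was digested with collagenase IV and DNase I, filtered at 40 μm and layered on Percoll, and the interphase between 70% and 37%, which holds immune cells, was kept. The tumour cells described here are therefore those that settled in that layer. How many mice each library pooled is not stated in the labels, and with 1 library per group no difference between the groups could be tested. Intervals below are 95% intervals and cover counting error only.

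The libraries held 165796852 UMIs (control) and 149413534 UMIs (LTS), with 9127 and 5440 barcodes of 1000 UMIs or more. LTS cells were deeper: members held a median of 22648 UMIs in control and 46228 in LTS, and the other tumour-like cells 19471 and 36206. Upper limits set in whole UMIs fall more strictly on deeper cells. The limit on Cldn5, Flt1 and Pecam1 removed 23.6% of the control cells that reached it and 42.8% of the LTS cells. The part of depth in that difference was not tested. No member barcode occurred in both libraries, although 19 barcodes of 1000 UMIs or more did, 1 of them tumour-like in both. Scrublet called 0 doublets in control, where it therefore gave no information, and 109 in LTS, none of them a member.

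When a cell copies its DNA, origins loaded with the MCM helicase during G1 are fired, and polymerases, the sliding clamp and ligase extend and join the new strands. Deoxynucleotides and histones have to be made at the same time, and E2F transcription factors, released from the retinoblastoma proteins by cyclin E and CDK2, switch on many of the genes involved. The mitotic programme, with B-type cyclins, kinesins and the anaphase-promoting complex, is switched on later, with B-Myb and FoxM1 among its activators. CHR elements and CCAAT boxes are common in the promoters of its genes. The name of the state rests on transcripts, since no DNA content entered this description.

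E2F words and CCAAT boxes are among the DNA elements in promoters of these programmes, and CHR elements were not searched. Promoter windows of some of the genes that the results turn on are printed here. Each window is the 250 bases before a RefSeq start site (GRCm38.p6), read 5′ to 3′ on the strand of the gene. Capitals mark matches, on either strand, to an E2F word (TTTGGCGC, TTTCCCGC, TTTCGCGC or TTTGCCGC) or to the CCAAT box (CCAAT), and runs of capitals longer than a single word are overlapping words. Mcm5 (chr8:75109259-75109508, plus strand) and Mcm6 (chr1:128359706-128359955, minus strand) encode subunits of the MCM helicase. Cdc6 (chr11:98907901-98908150, plus strand) encodes a helicase loader, and Uhrf1 (chr17:56304063-56304312, plus strand) a reader of hemimethylated DNA. Hist1h1b (chr13:21780626-21780875, minus strand) encodes a linker histone. Genes of the mitosis list shown are Top2a (chr11:99024190-99024439, minus strand), a topoisomerase, and Cenpa (chr5:30666636-30666885, plus strand), the centromeric histone. Of these, Top2a was higher in members of both libraries and Cenpa lower.
Mcm5: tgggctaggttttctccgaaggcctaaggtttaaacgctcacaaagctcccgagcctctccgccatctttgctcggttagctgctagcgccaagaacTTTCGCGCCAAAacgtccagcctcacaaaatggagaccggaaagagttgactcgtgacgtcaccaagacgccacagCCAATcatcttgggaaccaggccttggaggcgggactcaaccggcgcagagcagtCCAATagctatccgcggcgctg
Mcm6: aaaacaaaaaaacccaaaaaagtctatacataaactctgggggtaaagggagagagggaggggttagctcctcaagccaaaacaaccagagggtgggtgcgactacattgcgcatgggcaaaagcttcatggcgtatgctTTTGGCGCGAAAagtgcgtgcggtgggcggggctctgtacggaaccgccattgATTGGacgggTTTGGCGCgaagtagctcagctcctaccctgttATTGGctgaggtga
Cdc6: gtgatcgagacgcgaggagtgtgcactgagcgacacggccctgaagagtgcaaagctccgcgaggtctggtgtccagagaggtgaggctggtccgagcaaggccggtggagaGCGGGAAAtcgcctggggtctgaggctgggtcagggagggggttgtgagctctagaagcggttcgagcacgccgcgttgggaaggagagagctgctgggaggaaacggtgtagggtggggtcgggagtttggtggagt
Uhrf1: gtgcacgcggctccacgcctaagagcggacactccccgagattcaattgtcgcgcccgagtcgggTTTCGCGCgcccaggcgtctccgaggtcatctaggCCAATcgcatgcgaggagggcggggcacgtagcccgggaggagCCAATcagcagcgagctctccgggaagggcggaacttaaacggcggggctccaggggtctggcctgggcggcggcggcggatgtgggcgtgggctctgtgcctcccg
Hist1h1b: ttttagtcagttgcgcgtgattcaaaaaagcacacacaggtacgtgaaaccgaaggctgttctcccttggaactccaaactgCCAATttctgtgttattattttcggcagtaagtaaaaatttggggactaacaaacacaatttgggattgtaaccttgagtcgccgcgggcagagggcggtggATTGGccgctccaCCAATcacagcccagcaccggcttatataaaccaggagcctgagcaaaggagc
Top2a: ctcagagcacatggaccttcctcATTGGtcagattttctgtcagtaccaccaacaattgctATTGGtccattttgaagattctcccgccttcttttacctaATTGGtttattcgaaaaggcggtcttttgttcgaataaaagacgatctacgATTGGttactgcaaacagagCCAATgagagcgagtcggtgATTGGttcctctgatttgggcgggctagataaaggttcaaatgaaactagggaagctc
Cenpa: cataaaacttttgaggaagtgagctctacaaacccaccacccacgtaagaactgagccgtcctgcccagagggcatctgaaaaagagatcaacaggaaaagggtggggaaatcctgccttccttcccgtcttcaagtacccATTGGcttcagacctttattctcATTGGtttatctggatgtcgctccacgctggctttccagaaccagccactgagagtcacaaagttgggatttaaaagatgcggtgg
Mcm5 held a pair of overlapping E2F words, on opposite strands, that began 153 and 149 bases before the start. Mcm6 held such a pair at 110 and 106 bases and a further word at 47 bases. Cdc6 held 1 E2F word at 138 bases, and the Uhrf1 window held 1 at 185 bases. Uhrf1 has a second window, at another start site (chr17:56303087-56303336), with no E2F word and 1 CCAAT box. The windows of Hist1h1b, Top2a and Cenpa held CCAAT boxes, 3, 6 and 2 of them, and no E2F word of the 4 searched. The printed replication genes other than the histone are ones with an E2F word. The windows of the score genes Tk1, Lig1, Brca1, Rrm2 and Ung, and of Clspn, Pcna and Mcm2, held none. Esco2 is named only.

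Across genes, E2F words were found in 2 of 7 matched score genes (28.6%), in 5 of 12 origin licensing genes (41.7%), in 6 of 14 genes of chromatin assembly and DNA methylation copying (42.9%) and in 3 of 21 genes of polymerases, clamp and lagging strand (14.3%). Of deoxynucleotide supply 0 of 16 matched genes held one, and 2 of 9 MHC class I genes (22.2%), 1 of 16 interferon genes (6.25%), 0 of 19 glycolysis genes and 0 of 12 p53 targets did. Among all genes measured, 262 of 5394 matched genes (4.86%) held one. Of the 35 matched genes of the mitosis list, 1 did (2.86%), and of the 23 matched histone genes, 1 did (4.35%). CCAAT boxes were in 26 of the 35 mitosis genes (74.3%) and 21 of the 23 histone genes (91.3%), against 7 of 12 licensing genes (58.3%), 7 of 16 nucleotide genes (43.8%), 8 of 9 MHC class I genes (88.9%) and 2164 of 5394 measured genes (40.1%). Over all 32851 windows of the table, 1.86% held an E2F word and 33.8% a CCAAT box. Of the 16 genes named higher in members, 14 were matched, 4 with an E2F word (28.6%) and 10 with a CCAAT box (71.4%). Of the 10 named lower, 0 held an E2F word and 9 a CCAAT box (90%). Among the 100 genes highest in members by the naming rule, 84 were matched, 16 with an E2F word (19.0%) and 51 with a CCAAT box (60.7%). CCAAT boxes were thus frequent among genes higher in members too. A match describes letters in a window and not a bound site, and lists with under 80% of genes matched are left out.

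Members were 10.6% (95% Clopper-Pearson interval 9.64 to 11.6) of the control tumour-like cells and 8.35% (6.95 to 9.93) of the LTS tumour-like cells. The LTS share was 0.787 times the control share (0.634 to 0.971). The score was a range with no gap at the cut: the lowest member scored 0.784562 and the highest other cell 0.784443, and 151 members (29.6%) and 204 other cells lay within 0.05 of the cut. The 51 members nearest the cut averaged 2.90 UMIs of Rrm2 per 10000 and the 51 nearest other cells 2.82. With a minimum of 20000 UMIs per cell in place of 10000, the ratio of shares was 0.599.

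**Figure D1:**
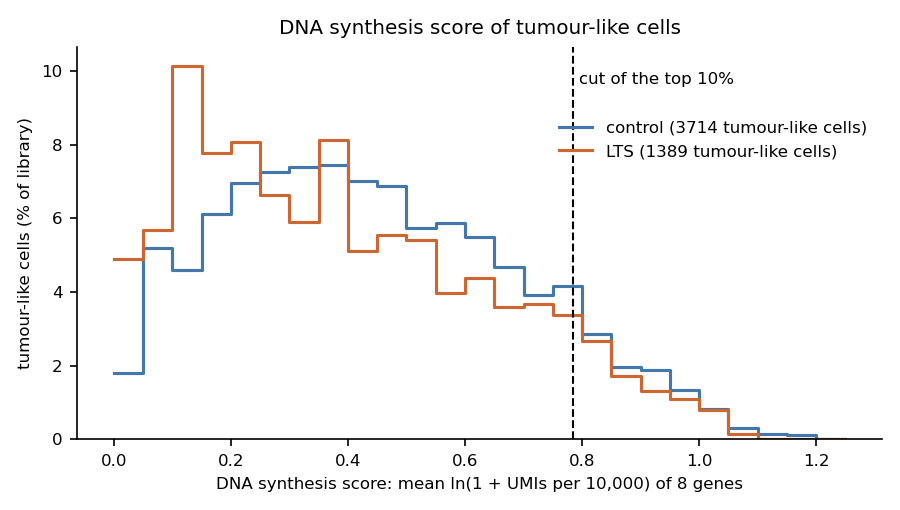
Distribution of the DNA synthesis score (x axis, mean ln(1 + UMIs per 10,000) of 8 genes) in tumour-like cells, as a percentage of each library's tumour-like cells (y axis), with the cut of the top 10% as a dashed line. Both libraries run through the cut without a gap, and more LTS cells lie at the lowest scores.

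Median scores of members were alike in the libraries, 0.880 in control and 0.872 in LTS, while those of the other cells were 0.384 and 0.322. A single cut on this score chose the members of both libraries, so nothing is read from the likeness of their medians. Of the 8 score genes, members showed a median of 7 in control and 8 in LTS and never fewer than 5, and all 8 were found in 138 control and 72 LTS members. Members held more UMIs than other cells in both libraries. After every cell was thinned to 10000 UMIs, the median number of genes found was 3431 in members and 3372 in others in control, and 3378 and 3296 in LTS. The median mitochondrial share was 5.71% and 5.70% in control and 5.30% and 5.73% in LTS. A score computed on thinned cells gave a ratio of shares on the same side of 1.

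The 8 genes that chose the members ran as the rule made them. Rrm2, the small subunit of ribonucleotide reductase, was at 358 CPM in members and 116 CPM in the other cells of the control library, and 357 and 99.6 CPM in the LTS library (CPM, a gene's UMIs per 1000000 UMIs of the summed cells). Tk1, thymidine kinase, was at 219 against 84.9 CPM in control and 238 against 81.4 CPM in LTS. Esco2, which acetylates cohesin behind the fork, was at 70.3 against 20.6 CPM in control and 62.5 against 16 CPM in LTS. Over the 8, the log2 ratio of members to other cells (computed with 5 CPM added to both) ran from 0.91 for Mcm6 to 1.58 for Rrm2 in control and from 0.99 to 1.79 in LTS. Lig1, the ligase of Okazaki fragments, had 1.28 and 1.44. Brca1, which protects stalled forks, had 1.44 and 1.60, Mcm5 1.22 and 1.30, and Ung, which removes uracil from DNA, 1.00 and 1.01. In thinned cells Rrm2 was found in 97.2% (95.1 to 98.6) of control members and Ung in 37.3% (32.5 to 42.3), so most single members held no UMI of Ung at that depth. Unthinned, those shares were 100.0% and 62.4%. In the 106 control barcodes with 2 or more Ptprc UMIs and 10000 UMIs or more (median 17324 UMIs), Rrm2 was found after thinning in 42.5% (32.9 to 52.4) and Ung in 24.5% (16.7 to 33.8), from sources that were not told apart.

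Beyond the score genes, whole groups of replication genes were higher in the same cells. Of 6517 genes measured in control (20 CPM or more in either sum), 29 were 2-fold or more higher in members (0.445%) and 0 were 2-fold or more lower. Of 6542 in LTS, 65 were higher (0.994%) and 1 was lower (0.0153%), Cenpa. The rule used these same cells, so nothing is read from those shares, and the list counts that follow are descriptions. In both libraries 27 genes were 2-fold or more higher, 6 of them score genes. Of the score genes, Mcm6 was just under 2-fold in both libraries and Ung in control. The other 21 were Ccne2, Clspn, Dck, Rad51ap1, Fbxo5, E2f7, 2810417H13Rik, Atad5, Slfn9, Cdc6, Hist1h1b, Hist1h2ap, Hist1h1d, Hist1h2ae, Hist1h1e, Ncapg2, Dscc1, Atad2, Tcf19, Uhrf1 and Fam111a. 2810417H13Rik is the older symbol of Pclaf, a partner of the PCNA clamp. Over all measured genes the median log2 ratio was 0.00 in control and 0.01 in LTS.

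**Figure D2:**
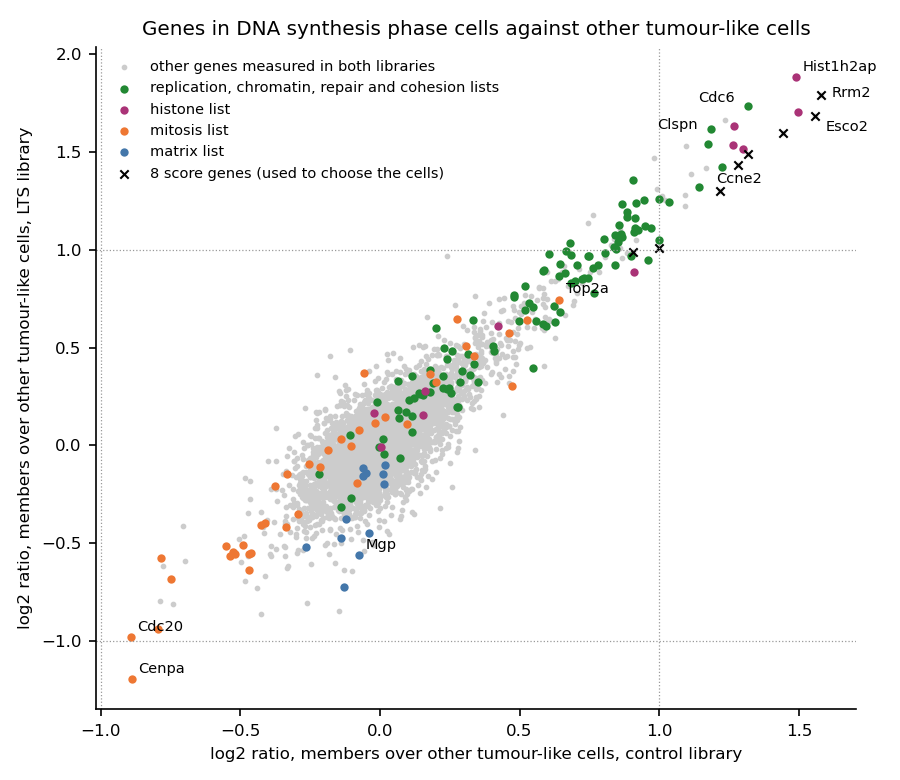
Each point is a gene, placed by its log2 ratio of members to other tumour-like cells (5 CPM added) in the control library (x axis) and the LTS library (y axis), with dotted lines at 2-fold. The 8 score genes lie at the upper right. Most replication and histone genes lie on the higher side of both axes, but few replication genes pass 2-fold in both libraries. Cdc20 and Cenpa lie at the lower left.

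Origin licensing, the loading of helicases before S phase, was among the higher groups: 10 of 12 measured genes were higher in members in control and 10 of 11 in LTS, with a median log2 ratio of 0.67 and 0.92. Cdc6 (gene at chr11:98907801-98923940 in GRCm38) was its 1 gene past 2-fold in both libraries. Cdc6 was at 61.4 CPM in members and 21.6 CPM in the other cells of the control library, and 68.9 and 17.2 CPM in the LTS library, ratios of 2.84-fold (95% interval 2.57 to 3.13) and 4.01-fold (3.54 to 4.53). Cdt1, which loads the MCM ring together with Cdc6, was at 199 against 114 CPM in control and 206 against 107 CPM in LTS. Geminin (Gmnn), its inhibitor, was at 158 against 79.4 CPM in control and 165 against 73.1 CPM in LTS. Loader and inhibitor were thus both higher in members of both libraries. The MCM subunits outside the score had log2 ratios of 0.66 and 0.88 (Mcm2), 0.84 and 1.00 (Mcm3), 0.84 and 1.01 (Mcm4) and 0.58 and 0.62 (Mcm7). The origin recognition complex was split: Orc6 was at 233 against 144 CPM in control and 267 against 128 CPM in LTS, while Orc4 was lower in members in both libraries, with -0.10 and -0.27.

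Genes that fire origins and hold the fork were higher as well: 12 of 13 measured genes were higher in members in control and 14 of 14 in LTS, with a median log2 ratio of 0.64 and 0.91. Clspn encodes claspin, which links the fork to the checkpoint kinase Chk1. Clspn was at 150.1 CPM in members and 63.2 CPM in the other cells of the control library, and 168 and 51.4 CPM in the LTS library, ratios of 2.38-fold (95% interval 2.23 to 2.52) and 3.28-fold (3.03 to 3.54). Mcm10, needed to activate the helicase, had log2 ratios of 0.94 and 1.25, and Cdc45, the helicase cofactor, 0.90 and 0.97. GINS subunits had 0.58 and 0.68 (Gins1), 0.72 and 0.85 (Gins2) and 0.59 and 0.61 (Gins4). Dbf4, the activator of the Cdc7 kinase, stood apart from its group with -0.11 and 0.06.

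Every measured gene of the list of polymerases, clamp and lagging-strand proteins was higher in members, 23 of 23 in each library, with a median log2 ratio of 0.67 and 0.86. Pcna, the sliding clamp, was at 157 against 80.9 CPM in control and 167 against 74.5 CPM in LTS. The catalytic subunits of the replicative polymerases had log2 ratios of 0.80 and 0.98 (Pola1, which starts each fragment), 0.77 and 0.78 (Pold1, lagging strand) and 0.88 and 1.17 (Pole, leading strand). Prim1, the primase, had 0.91 and 1.09. Single-strand binding proteins differed among themselves, with 0.92 and 1.10 for Rpa2 and 0.18 and 0.27 for Rpa3. Fen1 and Dna2, the nucleases that trim Okazaki flaps, had 0.84 and 1.08 and 0.90 and 1.36. Rnaseh2c was nearly level, at 216 against 214 CPM in control and 231 against 225 CPM in LTS.

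Deoxynucleotide supply was higher by less: 16 of 17 measured genes were higher in members in control and 16 of 17 in LTS, with a median log2 ratio of 0.28 and 0.36. Dck, the salvage kinase of deoxycytidine, had 1.03 and 1.25. Tyms, thymidylate synthase, was at 114 against 68.4 CPM in control and 107 against 57.4 CPM in LTS. Rrm1, the large subunit of ribonucleotide reductase, had 0.73 and 0.86. Pyrimidine and folate genes that every growing cell uses were nearer to level, with 0.14 and 0.26 for Cad and 0.09 and 0.17 for Shmt2. Rrm2b, the p53-regulated small subunit, was the measured exception in both libraries, with -0.22 and -0.14.

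All 15 genes of chromatin assembly and DNA methylation copying were higher in both libraries, with medians of 0.74 and 0.97. Uhrf1 and Dnmt1 copy methylation onto the new strand. Uhrf1 was at 177 CPM in members and 86.2 CPM in the other cells of the control library, and 206 and 83.0 CPM in the LTS library, and Dnmt1 at 151 against 87.8 CPM in control and 157 against 77.6 CPM in LTS. Chaf1a and Chaf1b, which load histones behind the fork, had log2 ratios of 0.87 and 1.07 and 0.87 and 1.24. Atad2, a bromodomain ATPase, was at 246 against 109 CPM in control and 241 against 93.4 CPM in LTS. Slbp, which binds the stem-loop of replication-dependent histone mRNAs, was at 223 against 121 CPM in control and 249 against 118 CPM in LTS.

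Histone genes stood first by the naming rule, with Hist1h1b and Hist1h2ap at its head. Most replication-dependent histone mRNAs end in a stem-loop and not in a poly(A) tail, so a 3′ kit captures only part of them, and Hist1 copies are near-identical, so reads can be split or lost between them. With those limits, 6 of 12 measured histone genes were 2-fold or more higher in members in control and 6 of 12 in LTS, with medians of 0.97 and 0.95. Without the minimum of 20 CPM, which adds list genes near 0 CPM, the medians were 0.44 and 0.64. Hist1h1b (gene at chr13:21779883-21780625), linker histone H1.5, was at 478 CPM in members and 166 CPM in the other cells of the control library, and 459.5 and 137 CPM in the LTS library, ratios of 2.88-fold (95% interval 2.78 to 2.98) and 3.34-fold (3.19 to 3.50). Hist1h2ap, a core H2A gene, was at 827 CPM in members and 291 CPM in the other cells of the control library, and 1389 and 373 CPM in the LTS library, ratios of 2.84-fold (95% interval 2.77 to 2.92) and 3.73-fold (3.63 to 3.83). Hist1h1e and Hist1h1d, also linker histones, had log2 ratios of 1.30 and 1.52 and 1.26 and 1.54. The replacement histones, made in all phases with poly(A) tails, were close to level: H3f3a had 0.00 and -0.01, H3f3b 0.15 and 0.16 and H2afz 0.16 and 0.28. In thinned cells Hist1h1b was found in 91.6% (88.4 to 94.2) of control members and 43.0% (41.3 to 44.7) of other control cells. The LTS shares were 90.5% (83.7 to 95.2) and 34.6% (32.0 to 37.3). Unthinned, the 4 shares were 96.4%, 54.4%, 99.1% and 49.9%. In barcodes with 2 or more Ptprc UMIs and 10000 UMIs or more, the thinned shares were 43.4% (33.8 to 53.4) of 106 in control and 26.7% (21.7 to 32.2) of 288 in LTS, at median depths of 17324 and 15166 UMIs.

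Among regulators of the cycle, E-type cyclins, E2f1, E2f2 and E2f7 were higher and cyclin D1 and E2f5 were lower. In the list of cyclins, kinases, inhibitors and E2F factors, 22 of 29 measured genes were higher in members in control and 23 of 29 in LTS, with a median log2 ratio of 0.35 and 0.35. Ccne1 and Ccne2 encode the E-type cyclins that start S phase. Ccne1 was at 65.4 against 36.5 CPM in control and 72.1 against 29.1 CPM in LTS, and Ccne2 at 42.2 against 16 CPM in control and 35.7 against 10.2 CPM in LTS. Ccna2, the cyclin of S and G2, had smaller log2 ratios, 0.26 and 0.36. E2f7, a repressor E2F, had 1.10 and 1.53, above the activators E2f1 (0.70 and 0.74) and E2f2 (0.72 and 0.83). Fbxo5, the inhibitor of the anaphase-promoting complex, had 1.02 and 1.26, and Dtl, which has Cdt1 destroyed at the fork, 0.84 and 1.06. Genes lower in members of both libraries were Ccnd1, Cdkn1b, Cdkn2a, Cdkn2b, E2f5 and Myc. Ccnd1, the G1 cyclin D1, was at 294 against 344 CPM in control and 250.5 against 297 CPM in LTS. Cdkn1b, the CDK2 inhibitor p27, was at 16.6 against 21.5 CPM in control and 17.7 against 23.1 CPM in LTS. Myc was nearest to level, at 51.3 against 51.4 CPM in control and 44.7 against 46.7 CPM in LTS.

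Checkpoint and repair genes were also higher: 20 of 21 measured genes were higher in members in control and 19 of 21 in LTS, with a median log2 ratio of 0.58 and 0.89. Genes of homologous recombination had the widest values among those named. Rad51ap1, an accessory protein of strand exchange, was at 71.2 against 27.6 CPM in control and 73.0 against 24.1 CPM in LTS, and Brca2, a mediator of the same repair, at 58.7 against 27.8 CPM in control and 55.1 against 26.1 CPM in LTS. Chek1, the checkpoint kinase of S phase, had log2 ratios of 0.84 and 0.92, and the mismatch repair gene Msh6 had 0.58 and 0.89. Trp53 was near level with 0.12 and 0.24, and base-excision gene Apex1 with 0.12 and 0.15. The p53 target list had medians of -0.07 and -0.07, and among it Cdkn1a (p21) was higher in both, 0.35 and 0.35. Cohesion genes were mostly close to level, medians 0.20 and 0.38, apart from Dscc1, which loads the clamp for cohesion (1.18 and 1.54), and Cdca5, sororin (0.80 and 1.06).

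Most genes of the mitotic programme were lower in members by summed counts. Of the 39 measured mitosis genes, 28 were lower in control and 24 in LTS, 24 of them in both, and the median log2 ratios were -0.25 and -0.14. Cenpa (gene at chr5:30666777-30674830) was at 119 CPM in members and 224 CPM in the other cells of the control library, and 98.7 and 232 CPM in the LTS library, 1.89-fold lower (95% interval 1.77 to 2.01) and 2.35-fold lower (2.16 to 2.57). Cdc20, the activator of the anaphase-promoting complex, was at 36.3 against 71.6 CPM in control and 28.3 against 60.7 CPM in LTS, 1.97-fold lower (95% interval 1.76 to 2.21) and 2.15-fold lower (1.82 to 2.54). Ube2c, its ubiquitin-conjugating enzyme, was at 122 against 215 CPM in control and 112 against 219.8 CPM in LTS. Ccnb1, the cyclin of mitotic entry, was at 70.0 against 98.8 CPM in control and 59.0 against 94.6 CPM in LTS, and Plk1, a mitotic kinase, at 42.8 against 63.5 CPM in control and 35.3 against 54.3 CPM in LTS. Named outside the list by the same rule were Pttg1, securin (-0.74 and -0.81), and Tle6 (-0.70 and -0.59). Not every gene of the list was lower: Top2a, which also relieves the twist ahead of forks, was at 800.1 against 511 CPM in control and 696 against 413 CPM in LTS, and Aurkb and Kif11 had 0.52 and 0.64 and 0.46 and 0.58.

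For the mitosis list, the median over genes of summed ratios was negative, while the single-cell score was higher in members. These measures combine genes as well as cells in different ways. Summed over 5 mitosis markers, Top2a among them, members held 1269 against 1051 CPM in control and 1100 against 846 CPM in LTS. In each library 2 of the 5 were higher in members. The median over cells of the list's mean ln(1 + UMIs per 10000), after thinning, was 0.428 in members and 0.345 in others in control, and 0.415 and 0.261 in LTS. The quartiles show the shape: members lay between 0.339 and 0.535 in control, while other cells spread from 0.131 to 0.624. The quartiles of members thus lay within those of the other cells. Of the 10% of tumour-like cells highest in the mitosis score, few were members: 7 of 394 control members (1.78%, interval 0.717 to 3.63) and 1 of 116 LTS members (0.862%, 0.0218 to 4.71) were among them. Among other cells, 372 of 3320 (11.2%) and 130 of 1273 (10.2%) were. With both scores taken after thinning, the member shares were 2.93% and 2.52%.

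Along the whole score, set in deciles of all tumour-like cells with the members as decile 10, genes of replication and of mitosis followed different courses. Cdc6 went from 0.0366 UMIs per 10000 in decile 1 to 0.497 in decile 9 and 0.619 in members in control, and from 0.0173 to 0.457 and 0.702 in LTS. Slbp went from 0.866 to 2.26 in control and from 0.880 to 2.53 in LTS. Ccnb1 was highest in decile 6 in both libraries, at 1.25 and 1.51, and 0.671 and 0.545 in members. The share of cells high in the mitosis score also peaked in decile 6, at 21.9% in control and 27.4% in LTS. Cdkn2a, which encodes the inhibitor p16 and Arf, was highest at the low end, 1.02 in decile 2 in control and 1.41 in decile 1 in LTS, against 0.697 and 0.895 in members. Depth moved along the score too: median UMIs were 13592 in decile 1 and 22648 in decile 10 in control, and 27268 and 46228 in LTS, and its part in these courses was not tested.

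**Figure D3:**
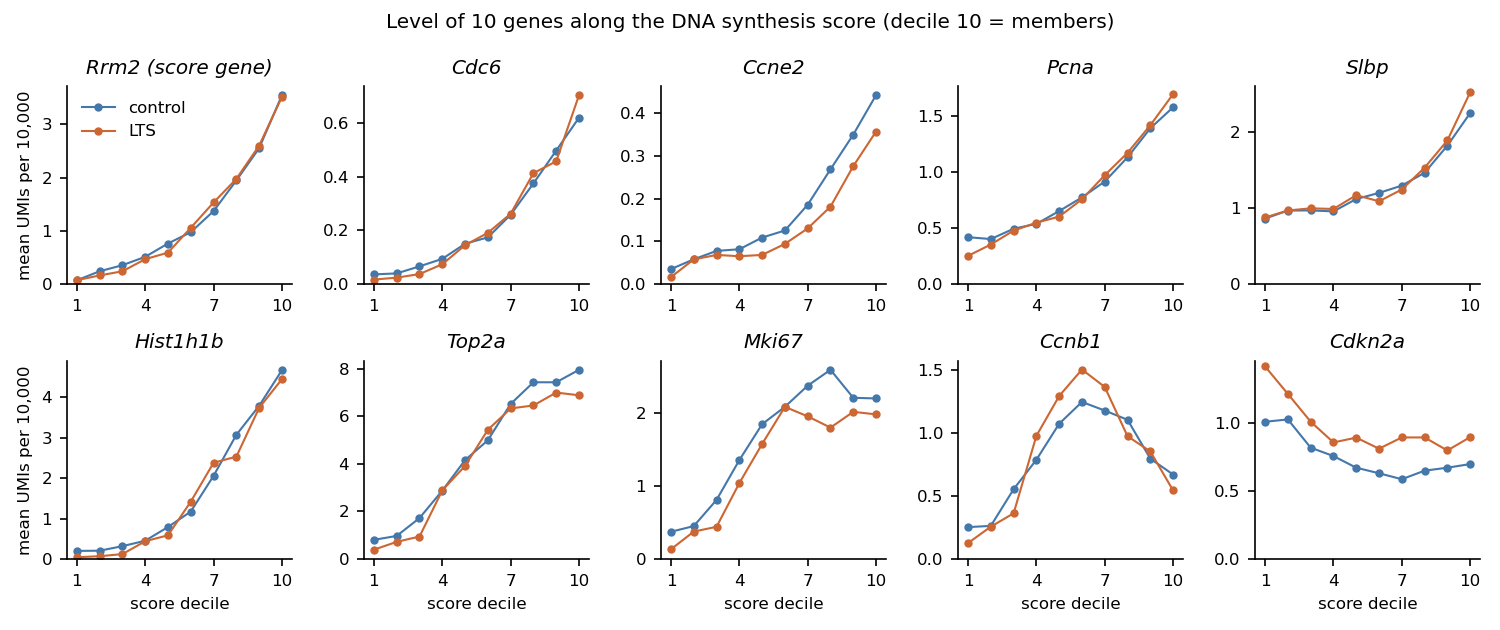
Mean UMIs per 10,000 of 10 genes (y axes, 1 panel per gene) in each decile of tumour-like cells by the DNA synthesis score (x axes), for both libraries. Replication genes climb to decile 10, the members, while Ccnb1 peaks in decile 6 and Cdkn2a is highest in decile 2 in control and decile 1 in LTS.

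**Figure D4:**
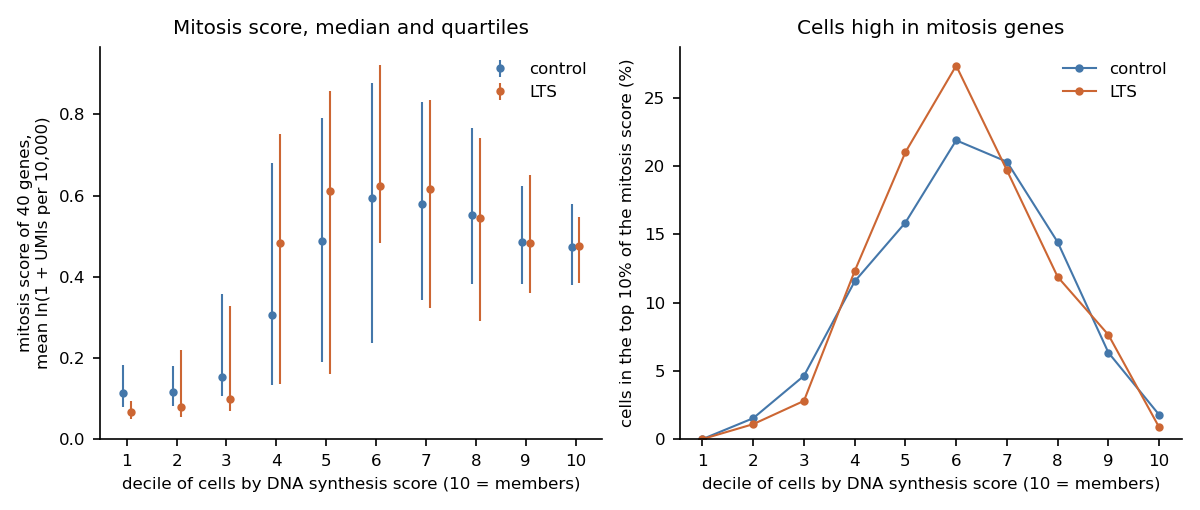
Left, median and quartiles of the mitosis score of 40 genes in each decile of the DNA synthesis score; right, the percentage of cells in each decile that lie in the top 10% of the mitosis score. The share peaks at 21.9% (control) and 27.4% (LTS) in decile 6 and is 1.78% and 0.862% in the members.

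The members were not alike among themselves: cells with more mitotic transcripts held less Ung and Cdc6 and more Esco2 and linker histone. Members of each library were ranked by the thinned mitosis score and the lowest and highest tertiles compared, 131 cells each in control and 38 in LTS, a split chosen after the data had been seen. Median UMIs were 21850 and 23448 in the control tertiles and 40644 and 47344 in the LTS tertiles, and median DNA synthesis scores 0.881 and 0.869, and 0.892 and 0.842. Ung ran from 92.0 to 25 CPM in control, a ratio of 0.272 (95% interval 0.209 to 0.351), and from 72.7 to 18.7 CPM in LTS, a ratio of 0.257 (0.170 to 0.380). Cdc6 ran from 73.0 to 47.2 CPM in control, a ratio of 0.646 (95% interval 0.520 to 0.801), and from 92.0 to 40.7 CPM in LTS, a ratio of 0.442 (0.329 to 0.590). Both were thus lower in the tertile high in mitosis genes. Ung, Esco2, Tk1, Rrm2 and Lig1 are score genes. A member low in a score gene needed more of the others to pass the cut. The part of that in these ratios was not tested. E2f1 had ratios of 0.617 and 0.757 in control and LTS, Ccne1 0.753 and 0.660, Mcm2 0.710 and 0.695 and Uhrf1 0.732 and 0.770. Across the same tertiles Rrm2 had 0.950 and 0.869, Lig1 1.04 and 1.01, Slbp 1.06 and 1.01 and Pcna 1.11 and 1.10.

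Other genes of the members ran the opposite way. Esco2 ran from 43.7 to 102 CPM in control, a ratio of 2.32 (95% interval 1.89 to 2.88), and from 38.6 to 81.3 CPM in LTS, a ratio of 2.11 (1.55 to 2.90). Hist1h1e ran from 117 to 321 CPM in control, a ratio of 2.74 (95% interval 2.42 to 3.11), and from 129 to 263 CPM in LTS, a ratio of 2.04 (1.73 to 2.42). Ccna2 had ratios of 1.80 and 1.79, Hist1h1b 2.13 and 1.61, Hist1h2ap 1.47 and 1.50 and Tk1 1.42 and 1.34. Esco2 and Tk1 are score genes, under the limit given above. These genes were named after their ratios had been seen. Others had ratios on opposite sides of 1 in control and LTS. E2f7 had 1.66 (1.20 to 2.31) and 0.837 (0.548 to 1.28). Cdkn2a had 1.11 (0.914 to 1.35) and 0.772 (0.614 to 0.969), and Gmnn 0.985 (0.868 to 1.12) and 1.25 (1.05 to 1.49). For each of these genes the interval of 1 library spanned 1, so no opposite course is read from them. Depth differed between the tertiles by the medians given, and its part was not tested. Mki67 and Top2a belong to the list that made the split, and their ratios, 3.73 and 3.06 and 2.02 and 1.79, describe only that.

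**Figure D5:**
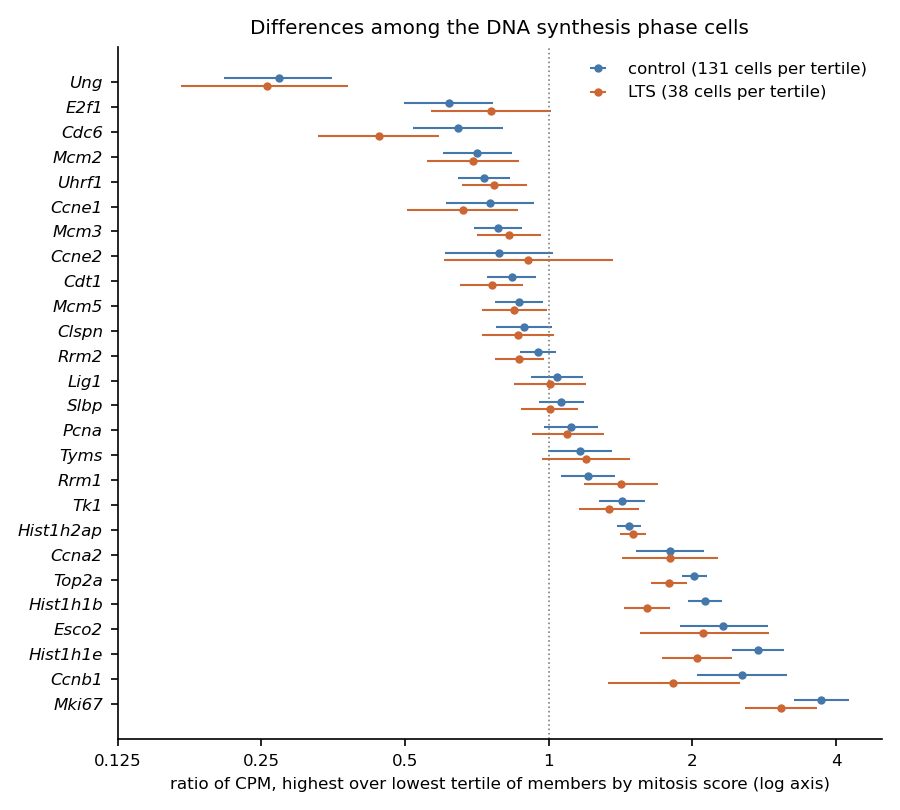
Ratio of CPM between the highest and the lowest tertile of members by the mitosis score (x axis, log scale), with 95% counting intervals, for 26 genes in both libraries. Ung lies farthest below 1 (0.272 and 0.257), and Esco2 and Hist1h1e above 1. Ung, Esco2, Tk1, Rrm2, Lig1 and Mcm5 are genes of the score that chose the members. Top2a, Ccnb1 and Mki67 are genes of the list that made the split.

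Pairs of transcripts were also looked for in single members. After thinning, 24.4% of control members held Ccne1 without Ccnb1, 27.4% Ccnb1 without Ccne1 and 20.8% both, and in LTS members 33.6%, 19.0% and 19.8%. Unthinned, those shares were 20.8%, 20.8% and 49.0% in control and 12.1%, 4.31% and 79.3% in LTS, so the share with both followed the depth. Ccne2 was found with Top2a in 29.4% and 25.9% of thinned members and without it in 0 of 394 and 0 of 116. Top2a itself was found in 99.0% and 98.3% of thinned members, so hardly any could hold Ccne2 without it. Unthinned, Ccne2 was found with Top2a in 55.8% and 70.7% and without it in 1 control member. In other tumour-like cells Ccne2 without Top2a was found in 65 of 3320 and 18 of 1273 thinned cells. There Top2a was found in 76.7% and 63.2%, so nothing about the pair is read from this difference. No UMI at this depth does not show that a transcript was missing.

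Between the libraries, replication genes of the members were at like levels. With 1 library per group these are values side by side. Of 6545 genes measured in members, 1 was 2-fold or more higher in LTS (0.0153%) and 16 were 2-fold or more lower (0.244%). Among other tumour-like cells, 0 of 6425 were higher (0%) and 13 were lower (0.202%). None of the genes of the replication, histone, repair or mitosis lists was among them. List medians of log2 LTS over control in members were 0.05 for licensing, 0.05 for polymerases, 0.05 for chromatin assembly and 0.11 for histones, against -0.02 over all genes. A single cut on the score chose members in both libraries. In the other cells, below the cut, the medians were -0.17 for licensing with 1 of 12 genes higher in LTS and -0.16 for polymerases with 3 of 22. They were -0.16 for chromatin assembly with 0 of 15 and -0.01 for histones with 5 of 11. Over all genes the median in the other cells was -0.03, with 2533 of 6425 higher in LTS. The mitosis list had -0.09 in members, with 9 of 39 genes higher in LTS, and -0.16 in other cells, with 5 of 38. Over all genes measured in members, 2917 of 6545 were higher in LTS.

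Among genes of 50 CPM or more that were higher in LTS members, a core histone came first. Hist1h2ap was at 827 CPM in control members and 1389 CPM in LTS members, 1.68-fold higher in LTS (95% interval 1.63 to 1.73), and log2 LTS over control was 0.74 in members and 0.35 in the other cells. Hist1h2ae was at 119 CPM in control members and 159 CPM in LTS members, with 0.40 in members and 0.04 in the other cells. Linker histone Hist1h1b did not share this: it was at 478 CPM in control members and 459.5 CPM in LTS members. The heme oxygenase Hmox1 was at 143 CPM in control members and 193 CPM in LTS members, with 0.42 in members and 0.04 in the other cells; 15.8% of its LTS member UMIs came from 1 cell, and it was lower in LTS members with the top 20% as members or with the endothelial limit on Cldn5 and Pecam1 alone. Cxcl10, an interferon-induced chemokine, was at 40.2 CPM in control members and 56.7 CPM in LTS members, but 43.0% of its LTS member UMIs came from 1 cell. Also named were Ost4, Slc39a1, Tmem128 and Raph1, with log2 ratios between 0.41 and 0.46.

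Ttr, the choroid plexus transthyretin, was the gene past 2-fold, at 5.49 CPM in control members and 25.3 CPM in LTS members. In the other tumour-like cells it was also higher in LTS, at 16.1 CPM in control and 35.9 CPM in LTS. The level of Ttr in barcodes of 1 to 100 UMIs, taken as free RNA, was 71.8 CPM in control and 1257 CPM in LTS. With 5% of the free RNA profile taken off each cell sum, no gene was 2-fold higher in LTS members. The cause of the difference in Ttr was not tested.

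Each of the 10 genes named as lower in LTS members was lower in the other tumour-like cells of LTS as well. Enah (gene at chr1:181896384-182019990), an actin regulator of cell edges, was at 56.5 CPM in control members and 15.2 CPM in LTS members, 3.73-fold lower in LTS (95% interval 2.95 to 4.77), with log2 ratios of -1.61 in members and -1.20 in the other cells. Pbld2 (gene at chr10:63024315-63058813), named here as counted although its copy Pbld1 lies beside it, was at 641 CPM in control members and 249.9 CPM in LTS members, 2.57-fold lower in LTS (95% interval 2.42 to 2.73), with -1.34 in members and -1.72 in the other cells. Snhg9, a host RNA of small nucleolar RNAs, was at 159.6 CPM in control members and 54.9 CPM in LTS members, with -1.46 in members and -1.60 in the other cells. Exoc1, a subunit of the exocyst, was at 293 CPM in control members and 129 CPM in LTS members, with -1.15 in members and -1.30 in the other cells. Mpv17l, Dennd5b and Gfod2 had log2 ratios of -1.28, -1.26 and -1.09 in members, and Nmt1 and Eif3j1 -0.91 and -0.88. Within a library Pbld2 was somewhat higher in members than in other cells, with 0.14 and 0.52. Samhd1, which breaks down deoxynucleotides, was at 85.8 CPM in control members and 54.7 CPM in LTS members and had -0.60 in members and -0.84 in the other cells.

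Other genes 2-fold lower in LTS members, picked out after their values were seen, included complement and antigen presentation genes of macrophages: C1qa was at 40.6 CPM in control members and 13.9 CPM in LTS members, C1qb at 33.4 CPM in control members and 11.6 CPM in LTS members, Ctss at 26.3 CPM in control members and 9.06 CPM in LTS members and Cd74 at 21.2 CPM in control members and 7.95 CPM in LTS members. Apoe was at 111 CPM in control members and 48.6 CPM in LTS members, while its free RNA level was 1333 and 1781 CPM. In other tumour-like cells, C1qa was at 36.1 CPM in control and 15.5 CPM in LTS, C1qb at 29.0 and 10.9 and Apoe at 106 and 54.1. For these genes the lower level in LTS was thus not particular to members. The rule caps C1qa, C1qb and C1qc at 10 UMIs per cell, a lower CPM in the deeper LTS cells, and its part in these values was not tested.

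Matrix genes were lower: 9 of 12 in control and 12 of 12 in LTS, medians -0.06 and -0.29, and over the alternatives the control median ran from -0.20 to 0.01. Mgp, matrix Gla protein, was at 311 against 328 CPM in control and 263 against 389.8 CPM in LTS, and Fn1, fibronectin, at 570.2 against 621 CPM in control and 584 against 759 CPM in LTS. In thinned single cells the median scores of the list were 0.577 in members and 0.572 in others in control, and 0.570 and 0.615 in LTS. In control the median over genes of summed ratios and the median over cells thus differed in sign. These measures combine genes as well as cells in different ways. MHC class I genes were slightly lower, 5 of 5 in control and 5 of 6 in LTS, medians -0.11 and -0.14, with B2m at 577 against 623 CPM in control and 489 against 572 CPM in LTS. Interferon genes had medians of -0.12 and 0.07, glycolysis and hypoxia 0.02 and 0.04, and stress genes 0.04 and 0.07, against 0.00 and 0.01 over all genes. The pair Pbld2 and Klra4 had -0.03 and 0.33, and the list of Il11, Areg and like growth factors -0.06 and -0.24, the latter 0.10 with the top 20% as members. Scx, Crabp2 and Crabp1 had a median of -0.07 and -0.03.

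Markers of other cell types were summed in members; the rule capped C1qa, C1qb and C1qc among the microglia markers, Cldn5, Flt1 and Pecam1 among the endothelial ones, and Ptprc, so low levels of these are no finding. The 10 microglia markers summed to 166 CPM in control members and 83.7 in LTS members, against 160.5 and 83.1 in other tumour-like cells and 11383 and 11928 in barcodes with 2 or more Ptprc UMIs. Outside the cap, Tmem119 was at 23.7 and 24.8 CPM, Cx3cr1 at 10.2 and 6.28 and P2ry12 at 2.08 and 1.29. None of the 10 was at 0, and 4 of 10 were higher in members than in other cells in each library. Monocyte markers, 5 in the list, summed to 23.5 and 9.80 CPM in members and 21.3 and 10.9 in other cells. The 7 T and NK markers summed to 1.43 and 1.85 CPM, with Cd3e and Ncr1 at 0 in both libraries and Cd4 at 0 in LTS. B cell markers summed to 1.32 and 0.924 CPM, choroid plexus markers to 5.60 and 25.5 CPM, nearly all Ttr, and neuronal markers to 0.110 and 0 CPM, with 3 of 4 at 0 in control and 4 of 4 in LTS. Endothelial markers summed to 39.5 and 22.4 CPM, against 41.5 and 24.8 in other cells, of which Flt1 gave 31.9 and 16.1. Y-linked genes, 4 in the list, summed to 0.768 and 0.370 CPM in members and 76.4 and 116 CPM in barcodes with Ptprc. Vim, used by the rule, was at 4453 against 4804 CPM in control and 3826 against 4375 CPM in LTS. Of glial markers, Gfap was at 0.439 and 0.370 CPM and Aqp4 at 0 in both, while Gja1 was at 225 and 230.1 CPM. Fibroblast and pericyte markers gave 623.6 and 629 CPM, chiefly Dcn (367 and 389), against 662 and 726 in other cells, with Rgs5 at 0.219 and 0.185. The part of these transcripts in the differences above was not tested.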

How the data were processed

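Single-cell RNA libraries made with the Chromium 3′ v3 chemistry, per the labels' protocols, were deposited by the authors as unfiltered matrices of UMI counts per gene and barcode. Cell Ranger 4 is named in the file headers and mm10 in the submitters' processing notes; other settings are not given in the sources used here. Cells, members and score followed the rule given in the report. Members and gene lists were chosen with earlier results of these data known. Counts were summed over cells per library and class with numpy 2.4.6 and scipy 1.17.1, expressed as CPM and turned into log2 ratios after adding 5 CPM, over genes of 20 CPM or more in either sum; 2-fold marks a log2 ratio of 1. Fold values use no added CPM and carry exact conditional intervals; shares carry Clopper-Pearson intervals. Both cover counting error only, since cells of 1 library are not replicates. The summing and ratio code was tested on simulated data. Doublets were called with Scrublet in scanpy 1.11.5 and kept. Barcodes of 1 to 100 UMIs gave the free RNA profile.

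Genes named for members against others had 50 CPM or more in the higher sum and a UMI in 10% or more of its cells in both libraries and the same sign; the 16 highest and 10 lowest by the smaller ratio were taken, without score, mitochondrial, ribosomal, haemoglobin, sex-linked, receptor-segment and unnamed genes. For LTS against control the 10 highest and 10 lowest were taken. List genes, score genes and a fixed set of cycle genes were added; the genes named in the tertile and decile comparisons, and other list genes with values, were chosen after their values were seen. Of the lists, Wapal was not matched and Hist2h2bb, which occurs under 2 identifiers, was left out. Gene positions are from GENCODE M21 (GRCm38). Some genes that the rule names are not reported here. Alternatives were tried for scaling, pseudocount, CPM minimum, thinning, limits, cut and score genes.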

Additional observations from a re-analysis of the deposited data

How the results depend on the processing

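Counts of genes past 2-fold depended on the settings. In control, 29 genes were 2-fold higher in members; this was 45 with a pseudocount of 1 CPM, 50 with cells weighing equally and 54 with thinned cells. The 0 lower genes became 1 with no CPM minimum and 1 with the top 5% as members. In LTS the 65 higher genes ran up to 93, with thinned cells, and became 44 with members by the thinned score and 41 with the endothelial limit on Cldn5 and Pecam1 alone, an alternative chosen after seeing the data. The 1 lower gene became 4 with a pseudocount of 1 CPM, 3 with equal weights, 6 with thinning, 3 with no CPM minimum, 2 with the top 5%, 4 with the top 20%, 4 with free RNA taken off and 2 with the other endothelial limit. The 1 gene higher in LTS members became 2 with equal weights, 3 with thinning, 3 with no CPM minimum, 3 with the top 5% and 0 with free RNA taken off. The cause was not tested.

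The ratio of member shares stayed below 1 in all 19 alternatives, from 0.599 with a minimum of 20000 UMIs to 0.887, and its interval excluded 1 in 15. The alternatives reuse cells of the same libraries and the intervals cover counting error only, so this count is no test between the groups. Of 836 list medians under alternatives, 13 moved; the control histone median ran from 0.44 to 1.16, the LTS histone median from 0.64 to 1.24, and the Il11 and Areg median of members in LTS was 0.10 with the top 20% against -0.24 with the top 10%. No paired analysis was possible because each group holds 1 library.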

Other observations

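The limit on Cldn5, Flt1 and Pecam1 set aside cells that met every other condition, 1147 in control and 1040 in LTS. In 1078 and 1008 of them Flt1 by itself passed 2 UMIs, and in 75 and 43 Cldn5 and Pecam1 together did, some cells counting under both. Flt1, a VEGF receptor gene, stood at 176 and 132 CPM in all the cells set aside and at 31.6 and 18.6 CPM in the tumour-like cells kept. Cldn5 and Cdh5, markers of endothelium, were at 83.1 and 17.3 CPM in the control cells set aside and 61.7 and 13.2 CPM in the LTS ones. In the tumour-like cells kept they were at 2.68 and 0.965 CPM in control and 1.01 and 0.623 CPM in LTS. The limit counts Flt1, Cldn5 and Pecam1, so the differences in Flt1 and Cldn5 were set by the rule and are no finding. The cells set aside were deeper than those kept, with medians of 24905 and 47825 UMIs against 19937 and 37150. At the same score cut, 129 of them in control (11.2%, interval 9.48 to 13.2) and 96 in LTS (9.23%, 7.54 to 11.2) would have counted as members, close to the shares of the cells kept, 10.6% and 8.35%, whose intervals overlap with these.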
